A study of Mus musculus with 19 samples.

Results

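The genes described here are the nuclear-encoded subunits and assembly factors of respiratory complexes I, III and V, followed in whole mouse aorta. They are the protein-coding genes whose symbol, matched from the listed Ensembl identifier, starts with Nduf, Uqcr or Atp5. The rule found 71 genes among the 37668 listed and left out 10 pseudogenes. It used no expression value. Of the genes named with values, Atp5b, Atp5f1, Ndufa2, Ndufa13, Ndufa4l2, Ndufb2, Ndufs1, Ndufs3, Ndufv2, Uqcrb and Uqcrc2 share their listed span with another gene, which makes their values less certain. Of the 71, 36 are subunits of complex I, 8 are assembly factors of complex I, 8 are subunits of complex III and 16 are subunits of complex V. The other 3 are Ndufa4 and its paralogue Ndufa4l2, which carry a complex I name and are not built into that complex, and Atp5s, a factor that is not a subunit of the synthase.

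The study compared aortas of male C57BL/6 mice, wild type or homozygous for mgR, a hypomorphic allele of Fbn1 (Fbn1mgR/mgR). Fbn1 encodes fibrillin-1 of the extracellular microfibrils, and this allele serves as a mouse model of severe Marfan syndrome. Mice were 16, 30 or 60 days old. The labels list 3 hypomorph and 3 wild-type libraries at 16 days, 4 of each genotype at 30 days, and 3 and 2 respectively at 60 days. The deposited tables give 1 pooled FPKM value (fragments scaled by transcript length and by the mapped fragments of the library) for each gene and group. No value therefore has an SD, n or replicate check, sequencing depth is unknown, and the pooled number of animals is not given in the sources used here. The deficit of the targeted gene was present at all 3 ages, with Fbn1 at 41.4 FPKM against 146.0 in wild type at 16 days, 40.9 and 133.9 at 30 days, and 24.6 and 52.7 at 60 days. Smooth muscle transcripts of the aortic wall were abundant in every group, with Myh11 between 563.0 and 854.0 FPKM. Cardiomyocyte transcripts were present as well: the 11 markers summed to between 386.4 and 2049 FPKM in a group. In RNA of whole tissue, fewer cells of a type and less RNA per cell cannot be told apart.

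Complex I oxidises NADH and passes its electrons to ubiquinone, complex III passes them on from ubiquinol to cytochrome c, and both pump protons out of the mitochondrial matrix. Complex V, the ATP synthase, lets the protons flow back through a membrane rotor and uses the rotation of its F1 head to make ATP. Complexes I, III and V, like complex IV, combine subunits encoded in the nucleus with subunits encoded in mitochondrial DNA, while complex II is nuclear throughout. Contractile smooth muscle of the aorta draws ATP from both respiration and glycolysis.

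All 71 genes had values above 0 in all 6 groups and a mean of at least 1 FPKM at each age, so none was lost to a filter. Their levels ran from 2.18 FPKM, for Atp5s in the hypomorph at 30 days, to 820.8 FPKM, for Atp5b in wild type at 16 days. Differences between genotypes are on the log2(FPKM + 1) scale, hypomorph minus wild type, and folds as plain ratios of FPKM. The median difference of the 71 genes was -0.16 at 16 days, -0.39 at 30 days and -0.07 at 60 days. Over all compared genes the median was 0.00, 0.04 and 0.11 at the same ages. Thus the respiratory genes stood lowest in the hypomorph at 30 days, and 65 of the 71 had their most negative difference at that age. Of the remaining 6, 4 had it at 16 days and 2 at 60 days. The share of all genes with their most negative difference at 30 days was not counted. Genes of similar level and length also had their lowest median at 30 days, at -0.13. The FPKM of the 71 genes added up to 7777 in the hypomorph and 8793 in wild type at 16 days, 6942 and 9135 at 30 days, and 7904 and 8496 at 60 days.

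**Figure D1:**
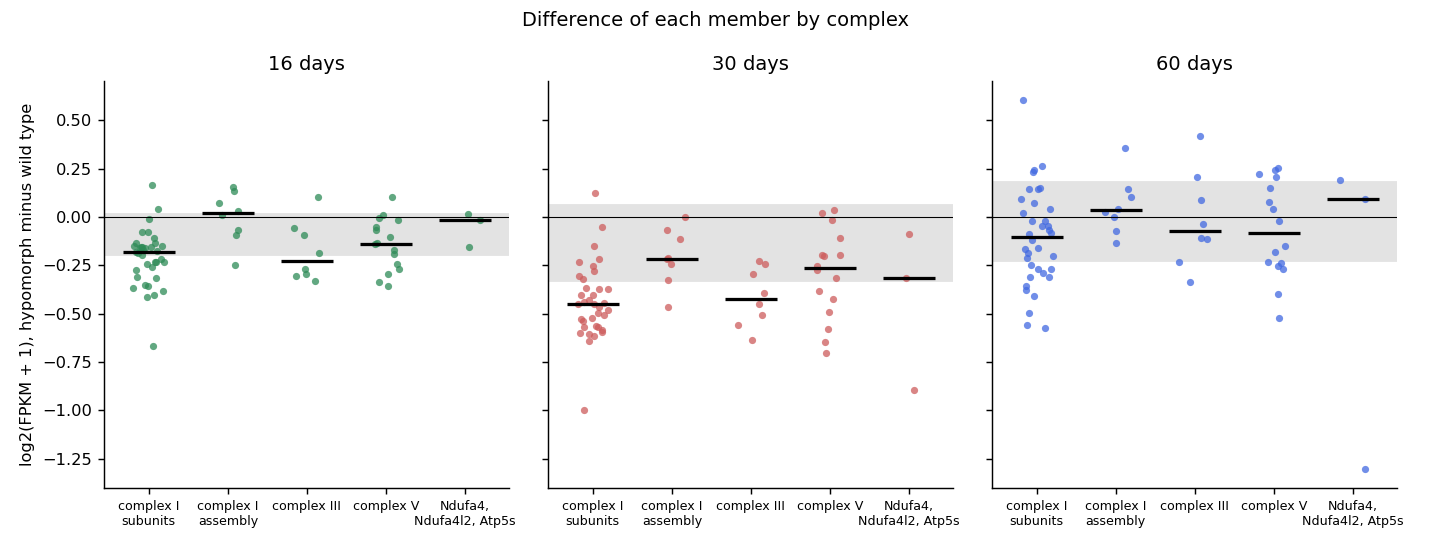
Each point is 1 gene, with the difference in log2(FPKM + 1), hypomorph minus wild type, on the vertical axis, and genes grouped by complex at each of 3 ages. Black bars are group medians, and the grey band is the range from the 25th to the 75th percentile of non-member genes of similar level and length; the complex I median lies at -0.18, -0.45 and -0.10 at 16, 30 and 60 days.

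At 30 days nearly the whole respiratory set was lower in the hypomorph, and the accessory subunits of complexes I and III were lower by more than the assembly factors. Of the 71 genes 68 were lower, against 45.0% of all compared genes and 67.4% of the 304 genes of similar level and length. The similar genes were somewhat longer than the members (median 980.5 against 838 nt) and less abundant (75.0 against 97.4 FPKM). A plain ratio of at least 1.5 in the lower direction was reached by 11 of the 71, against 6.93% of all compared genes and 8.55% of those of similar level and length. None was higher by 1.5-fold, against 11.1% of all compared genes and 8.22% of the similar ones. The 11 were Ndufv3, Ndufa2, Ndufa10, Ndufa13, Ndufb7, Ndufs6 and Ndufs7 of complex I, Uqcr11 of complex III, Atp5e and Atp5k of complex V, and Ndufa4l2. The table of this age carries no test and has 1 value per group, so none of these differences could be set against the spread between animals.

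Within complex I, Ndufv3, a small accessory subunit of the NADH-oxidising tip of the matrix arm, had the most negative difference. It stood at 73.0 FPKM in hypomorphic and 146.8 in wild-type aorta at 30 days, a 2.01-fold gap. At 16 days it stood at 93.2 and 148.6 FPKM, and at 60 days at 87.4 and 130.8 FPKM. Its wild-type level was above the hypomorph level at each age, and the hypomorph value was lowest at 30 days. Ndufv3 (ENSMUSG00000024038) is listed on chromosome 17 from 31657060 to 31668266 (mm9), and no other listed gene lies there.

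The 9 accessory subunits of the matrix arm had a median of -0.51 at 30 days, and all 9 were lower. Ndufs6, which binds zinc, was at 59.0 and 91.1 FPKM, hypomorph before wild type. Ndufa2 was at 93.4 and 141.9 FPKM, and Ndufa7, the most abundant complex I subunit here, at 113.8 and 164.5 FPKM. The 20 accessory subunits of the membrane arm, which holds the proton channels, had a median of -0.47 and were all lower. Among them Ndufb7 was at 77.0 and 117.7 FPKM, Ndufa13 at 55.4 and 86.9 FPKM, Ndufa10 at 25.6 and 39.2 FPKM, and Ndufb9 at 113.2 and 160.3 FPKM. Ndufa11 was the exception in size, with 19.0 FPKM in hypomorphic and 19.7 in wild-type aorta, a difference of -0.05.

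The 7 nuclear core subunits of complex I form the electron path from NADH to ubiquinone, and their differences at 30 days spread widely around a median of -0.41. Ndufs7, which holds the last iron-sulfur cluster before ubiquinone, was at 63.0 FPKM in hypomorphic and 95.1 in wild-type aorta. Ndufv1, which binds NADH and flavin, was at 74.4 and 101.8 FPKM, Ndufs8 at 36.2 and 49.1, and Ndufs3 at 53.0 and 70.5. Ndufv2 differed less, with 69.6 and 77.4 FPKM. Ndufs1, the largest core subunit with several iron-sulfur clusters, went the other way, with 25.9 FPKM in hypomorphic and 23.7 in wild-type aorta. It was among 3 members that were higher at this age, and the listed span of Ndufs1 also covers Ino80d and 4 other genes, so its reads are uncertain. The other 2, Atp5f1 and Atp5g3, differed by 0.02 and 0.04, and both lay on the lower side once the groups were scaled by the median ratio of all genes, which left Ndufs1 alone.

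The 8 assembly factors, which help to build complex I and do not stay in it, differed least among the complex I genes, with a median of -0.21 at 30 days. All 8 had values no higher in the hypomorph, and none reached 1.5-fold. Ndufaf2, the most abundant of them, was at 13.3 FPKM in hypomorphic and 15.6 in wild-type aorta, and Ndufaf8 at 12.4 and 14.9 FPKM. Ndufaf4 was at 10.1 FPKM in both genotypes.

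In complex III the 5 accessory subunits had a median of -0.51 at 30 days and the 3 genes of the core set one of -0.24. Uqcr11, a small subunit, was at 158.8 FPKM in hypomorphic and 247.1 in wild-type aorta, a 1.56-fold gap. Uqcrq, the most abundant complex III transcript here, was at 168.4 and 230.7 FPKM. Of the core set, Uqcrfs1, the Rieske iron-sulfur protein, was at 44.7 and 53.0 FPKM, Uqcrc1 at 80.1 and 98.5, and Uqcrc2 at 93.4 and 109.5. These 3 core genes were thus lower by less than every accessory subunit, the nearest of which, Uqcrb, differed by -0.39. Measured from genes of their own level and length, this order did not hold for each gene, with Uqcrb at -0.105 and Uqcrc1 at -0.194. The medians were then -0.22 for the accessory subunits and -0.14 for the core. The cytochrome c1 gene Cyc1, a complex III subunit outside the symbol rule, differed by -0.51 at 30 days, as much as the accessory median. The contrast therefore covers only the 3 core genes named here.

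In complex V the small subunits Atp5e and Atp5k were lower by more than the catalytic ones. Atp5e, the epsilon subunit of the central stalk, was at 331.3 FPKM in hypomorphic and 518.4 in wild-type aorta at 30 days. Atp5k, the e subunit at the membrane, was at 173.8 and 284.3 FPKM, a 1.64-fold gap. The catalytic beta subunit Atp5b was at 670.2 and 766.9 FPKM, and its partner alpha subunit Atp5a1 at 279.2 and 300.6. The 3 genes that encode the identical mature c subunit of the rotor differed by between -0.20 and 0.04, with Atp5g1 at 96.8 and 98.0 FPKM, Atp5g2 at 140.8 and 162.3, and Atp5g3 at 208.2 and 202.8. The median was -0.45 for the 4 small membrane subunits, -0.32 for the 4 genes of the peripheral stalk, -0.20 for the 5 of the F1 head and central stalk, and -0.02 for the c ring. Measured from genes of their own level and length, the small membrane subunits and the F1 head came close, at -0.16 and -0.14, and Atp5l and Atp5mpl, at -0.03 and 0.02, stood above Atp5a1 and Atp5b, at -0.14 and -0.09.

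**Figure D2:**
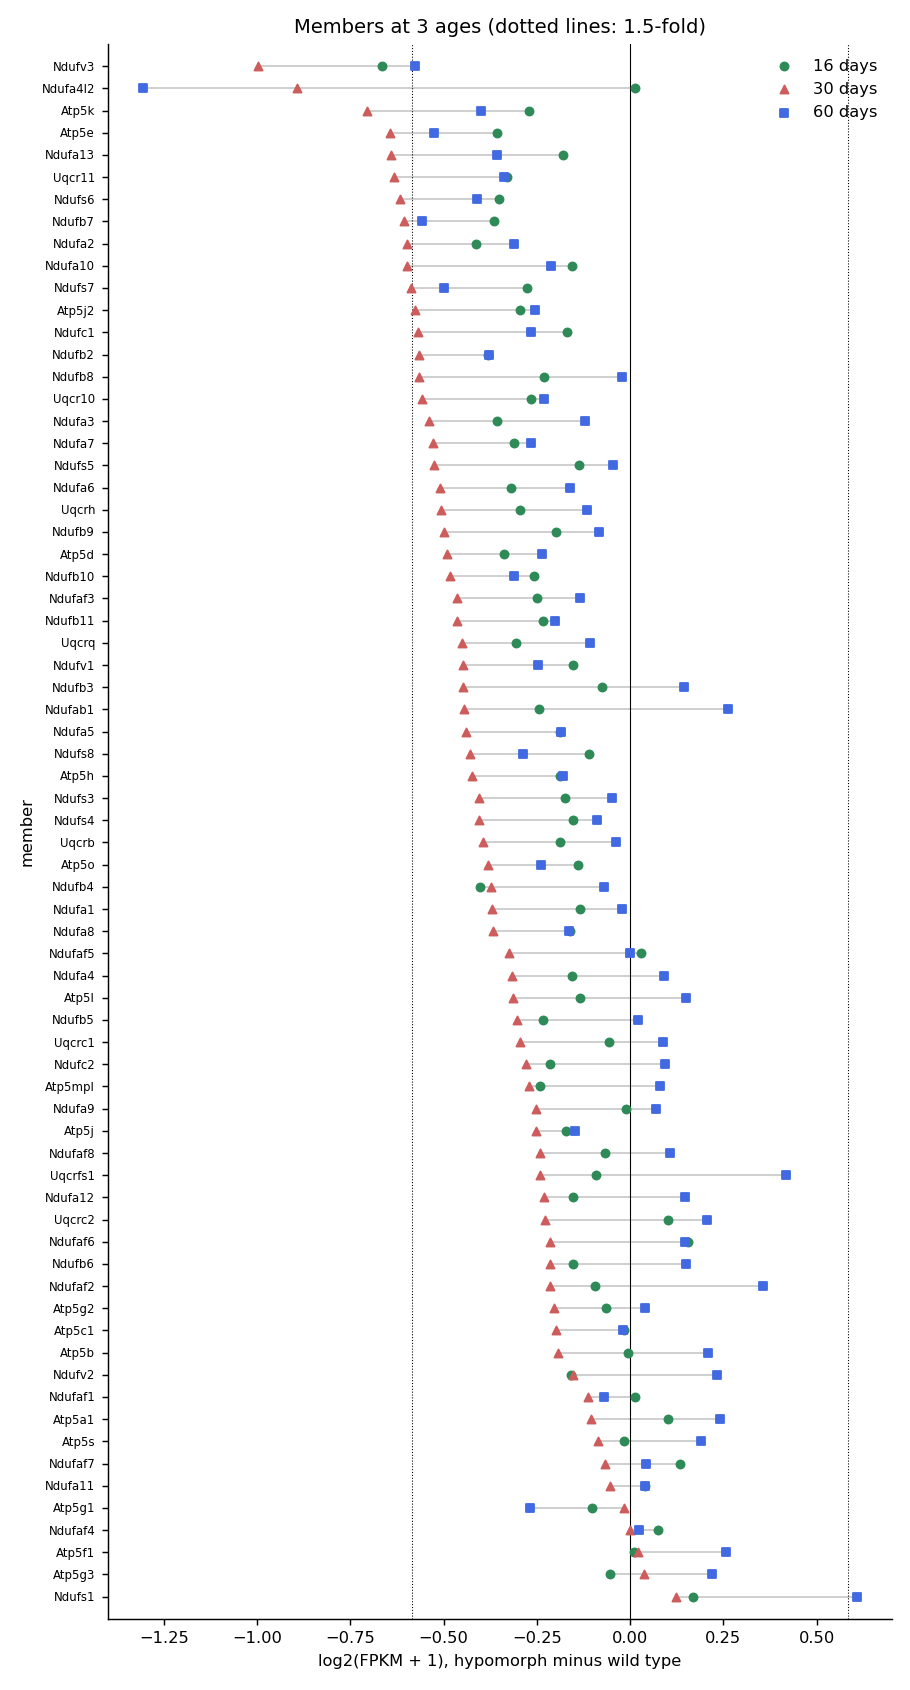
Each row is 1 member, all but 1 being shown, ordered by the difference at 30 days, and each symbol is its difference in log2(FPKM + 1), hypomorph minus wild type, at 1 age. Red triangles (30 days) lie left of the other symbols for most genes; Ndufv3 opens the list at -0.997 and Ndufs1 closes it at 0.12.

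Promoters of 3 members lower by 1.5-fold at 30 days are printed because regulators of respiratory genes, such as NRF1 and GABP, are known to bind short motifs close to the start site. The sequences are the 250 bases before the gene's start in RefSeq on GRCm38.p6, written 5′ to 3′ on the strand of the gene: Ndufv3 at chr17:31519865-31520114 on the plus strand, Atp5k at chr5:108434400-108434649 on the minus strand and Uqcr11 at chr10:80406822-80407071 on the minus strand. Capitals mark the NRF1 motif in Atp5k, which begins 50 bases before the start, and the GABP motif in Uqcr11, which begins 66 bases before it. Both distances count from the RefSeq start. For Atp5k, and for all but 36 of the 64 member windows searched, the bases after that start were not found at the start of an annotated transcript, so its place is less certain. Ndufv3, the member with the largest gap, held neither, so it has no capitals. Of the 9 windows searched for genes lower by 1.5-fold at 30 days, only those of Atp5k and Uqcr11 held a motif. The 3 printed windows therefore do not stand for the rest.
Ndufv3: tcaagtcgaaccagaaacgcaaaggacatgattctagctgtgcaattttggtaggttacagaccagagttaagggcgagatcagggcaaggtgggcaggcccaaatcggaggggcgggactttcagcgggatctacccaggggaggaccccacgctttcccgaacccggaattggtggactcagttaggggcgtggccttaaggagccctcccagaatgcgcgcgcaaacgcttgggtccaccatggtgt
Atp5k: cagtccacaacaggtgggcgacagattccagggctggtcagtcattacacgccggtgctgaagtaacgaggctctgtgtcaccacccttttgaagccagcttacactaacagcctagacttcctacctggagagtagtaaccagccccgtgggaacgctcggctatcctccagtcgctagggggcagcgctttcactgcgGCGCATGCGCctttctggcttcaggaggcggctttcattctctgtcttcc
Uqcr11: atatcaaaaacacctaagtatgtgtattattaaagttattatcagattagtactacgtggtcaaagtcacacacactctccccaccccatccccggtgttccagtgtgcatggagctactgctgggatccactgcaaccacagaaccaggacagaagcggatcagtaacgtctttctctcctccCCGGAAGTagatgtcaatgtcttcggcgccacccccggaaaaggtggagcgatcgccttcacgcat

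RefSeq windows were matched for 59 of the 71 members, which have 64 windows, and for 9 of the 11 genes lower by 1.5-fold at 30 days. Each motif was sought on both strands, and no motif overlapped another in the printed windows. The NRF1 motif, the run of capitals in Atp5k, which reads alike on both strands, was in 4 of the 64 windows (Atp5g2, Atp5k, Ndufa11 and Ndufaf4) and in 0.782% of all 32851 windows. The GABP motif CCGGAAGT or ACTTCCGG was in 3 (Atp5h, Uqcr11 and Uqcrh) and in 2.88% of all windows. The YY1 motif AAGATGGCG or CGCCATCTT was in 1 (Atp5j) and in 0.606% of all windows. In the 9 windows of genes lower by 1.5-fold at 30 days, the NRF1 motif was in 1, the GABP motif in 1 and the YY1 motif in 0. The 8 genes with a motif had differences at 30 days from -0.71 in Atp5k to 0.00 in Ndufaf4, and were spread over the range. A match describes letters in this window and not a bound site.

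At 16 days the same complexes leaned lower in the hypomorph by a smaller amount, and no member passed the authors' test. Of the 71 genes 60 were lower, against 49.5% of all compared genes and 72.0% of the 250 genes of similar level and length. A 1.5-fold lower value was reached by 1, Ndufv3, against 5.34% of all compared genes and 1.6% of the similar ones. A 1.5-fold higher value was reached by none, against 5.58% and 4.0%. Of the 71 members 53 had a test in the authors' deposited table, and for 18 it had failed. None of the 53 had a q-value below 0.05, against 2.8% of all genes tested (357 of 12738). Unadjusted, 2 of the 53 had p below 0.05 in the authors' deposited table, against 8.64% of all genes tested, and both were lower. They were Ndufv3, with a log2 ratio of -0.67 (implied SE 0.26, p = 0.00983, q = 0.206), and Ndufa7, with -0.31 (implied SE 0.14, p = 0.0246, q = 0.378), in the authors' deposited table. The implied SE of a member's log2 ratio in that table ran from 0.12 to 0.55 with a median of 0.34, larger than the difference of most members. Whether that SE measures the spread between animals is not given in the sources used here.

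Before level and length were allowed for, the order by role at 16 days resembled that at 30 days. The median was -0.31 for the matrix-arm accessory subunits of complex I, -0.21 for those of the membrane arm, -0.15 for its core and 0.02 for its assembly factors. It was -0.30 for the accessory subunits of complex III and -0.06 for its 3 core genes, with Cyc1, outside the symbol rule, at -0.275. In complex V it was -0.26 for the small membrane subunits, -0.16 for the peripheral stalk, -0.07 for the c ring and -0.02 for the F1 head and central stalk. After Ndufv3, the lowest differences were those of Ndufa2, at 92.9 FPKM in hypomorphic and 124.0 in wild-type aorta, and Ndufb4, at 30.8 and 41.0 FPKM. The highest were those of Ndufs1, at 31.4 and 27.9 FPKM, and of the assembly factors Ndufaf6, at 3.21 and 2.78, and Ndufaf7, at 6.59 and 5.91. Atp5b, the most abundant member, was at 817.7 and 820.8 FPKM. Measured from genes of their own level and length, the order by role changed in part. The matrix arm of complex I was then at -0.124, its core at -0.054 and its membrane arm at -0.037. In complex III the accessory subunits stayed below the core, at -0.105 and -0.032. In complex V the F1 head, peripheral stalk and c ring were at 0.020, 0.027 and 0.124, and the small membrane subunits at -0.066.

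At 60 days the respiratory genes divided as listed, with some core and catalytic subunits higher in the hypomorph and others lower. Many small accessory subunits were lower, which mostly went once level and length were allowed for. Of the 71 genes 43 were lower, against 37.4% of all compared genes and 50.3% of the 324 genes of similar level and length. A 1.5-fold lower value was reached by 1, Ndufa4l2, against 7.59% of all compared genes and 6.48% of the similar ones. A 1.5-fold higher value was reached by 1, Ndufs1, against 15.6% and 6.17%. The hypomorph values of all genes at this age were shifted upwards, with a median ratio of 1.09, or 0.12 on the log2 scale. Relative to that shift the median of the 71 genes was -0.18, 54 were lower, 5 were lower by 1.5-fold and none was higher by 1.5-fold. Of all 13992 genes so scaled 6996 were lower, 10.1% were lower by 1.5-fold and 11.7% were higher by 1.5-fold.

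Ndufs1 was at 25.5 FPKM in hypomorphic and 16.4 in wild-type aorta, a 1.56-fold gap, at 60 days. Uqcrfs1 was at 48.7 and 36.2 FPKM, and the assembly factor Ndufaf2 at 16.32 and 12.52 FPKM. In each of these the wild-type value was lower at 60 days than at 16 or 30 days, with each table normalised on its own. The hypomorph value at 60 days was close to that at 30 days in Ndufs1 and above it in Uqcrfs1 and Ndufaf2. All 3 core genes of complex III under the symbol rule were higher in the hypomorph, with a median of 0.21, while Cyc1, outside it, differed by -0.11. The median of the 3 became 0.09 after scaling, with 1 of them (Uqcrc1) then lower. Atp5b was at 718.1 and 621.6 FPKM and Atp5a1 at 297.7 and 251.5, and both kept their direction after scaling. On the lower side, Ndufv3 differed by -0.58, Ndufb7 by -0.56 with 99.8 FPKM against 147.3, Atp5e by -0.53 with 387.7 against 558.4, and Ndufs7 by -0.50 with 86.3 against 122.2. The median of the complex I core was -0.05, with 3 of its 7 genes higher and 4 lower. Ndufv1, at -0.25, and Ndufs8, at -0.29, were among the lower. The matrix-arm accessory subunits had a median of -0.18. Measured from genes of their own level and length, 10 of the 20 membrane-arm accessory subunits, 2 of the 5 accessory subunits of complex III and 2 of the 4 small membrane subunits of complex V were lower, with medians of 0.00, 0.01 and 0.04. The matrix-arm accessory subunits kept a median of -0.13, with 7 of 9 lower.

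Among the members Ndufa4l2 followed a course of its own, though the mitochondrially encoded genes and endothelial markers also lay lowest at 60 days. Ndufa4l2 belongs to the known targets of the hypoxia-inducible factor. It stood at 12.4 FPKM in hypomorphic and 12.3 in wild-type aorta at 16 days, 15.3 and 29.2 at 30 days, and 14.4 and 37.1 at 60 days. The groups were level at the first age, and the gap of 1.91-fold at 30 days and 2.57-fold at 60 days came with a higher wild-type value at each later age, as separately normalised tables give it. Its paralogue Ndufa4, a subunit associated with complex IV, did not share this, with 217.4 and 242.2 FPKM at 16 days, 209.7 and 261.4 at 30 days, and 216.8 and 203.5 at 60 days. Ndufa4l2 (ENSMUSG00000040280) is listed on chromosome 10 from 126951995 to 126959491 (mm9), where Shmt2 also lies.

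**Figure D3:**
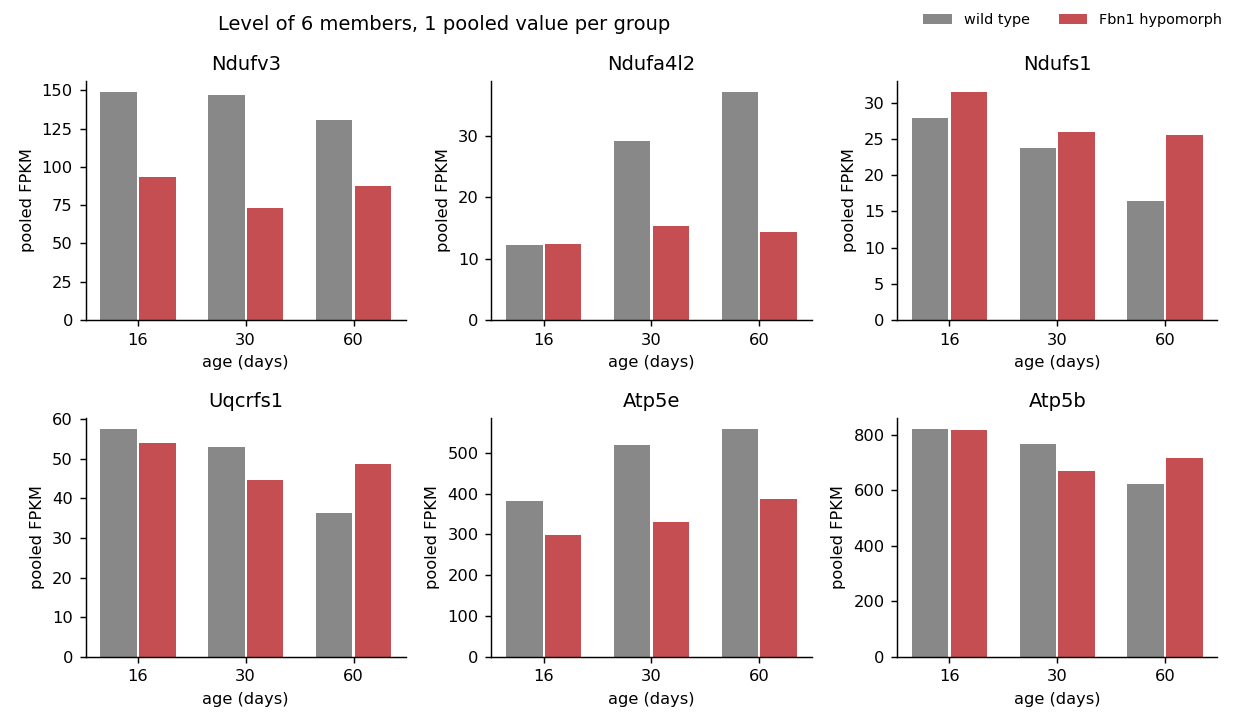
Bars show the pooled FPKM of 6 members in wild type (grey) and the Fbn1 hypomorph (red) at 16, 30 and 60 days, on axes from 0 that differ between panels, with no error bars because each group has 1 value. Ndufv3 and Atp5e are lower in the hypomorph at each age, Ndufa4l2 parts after 16 days, and Ndufs1, Uqcrfs1 and Atp5b are higher in the hypomorph at 60 days.

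Across the ages, 40 of the 71 genes were lower in the hypomorph at all 3 ages and 2, Ndufs1 and Atp5f1, were higher at all 3. A further 19 were lower at 16 and 30 days and higher at 60 days, among them Atp5b, Uqcrfs1, Uqcrc1 and Ndufv2. After scaling by the median ratio of all genes these counts were 48, 1 and 12: Atp5f1 then lay at -0.02 at 30 days and Uqcrc1 at -0.03 at 60 days. The share of all genes with each of these courses was not counted. Unscaled, 59 of the 71 were lower at both 16 and 30 days, against 4353 of 13601 genes overall. Lower at both 30 and 60 days were 43, against 3990 of 13613, and at both 16 and 60 days 40, against 3442 of 13462. The difference was more negative at 30 than at 16 days for 66 of the 71, as it was for 6207 of 13601 genes overall. It was more negative at 60 than at 30 days for 2 of the 71, Ndufa4l2 and Atp5g1, as it was for 5226 of 13613 genes overall. The order of the members was alike between ages: over the 71 genes, Pearson's r was 0.74 and Spearman's rho 0.75 between 16 and 30 days, 0.78 and 0.79 between 30 and 60 days, and 0.51 and 0.63 between 16 and 60 days. These correlations run across genes, which share libraries and are not replicates. Over all compared genes Pearson's r was 0.56, 0.76 and 0.45.

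Member transcripts are short and abundant, and over all genes short transcripts stood lower in the hypomorph than long ones. Transcript lengths, as the median over the gene's annotated transcripts, ran from 321.5 nt in Atp5k to 3632 nt in Ndufaf4, with a median of 838 nt, against 2538 nt over all genes compared at 16 days. Over the 71 genes the difference was less negative in longer transcripts, with Spearman's rho of 0.51 at 16 days, 0.39 at 30 days and 0.28 at 60 days. Over all compared genes rho was 0.21, 0.31 and 0.17. With GC content it was -0.36, -0.50 and -0.56 over the members and -0.10, -0.25 and -0.22 over all. The 37 shorter members had medians of -0.20, -0.45 and -0.12 at 16, 30 and 60 days, and the 34 longer ones -0.10, -0.32 and -0.02. Length, level and role go together here, since the accessory subunits are mostly short and the catalytic ones longer, and their parts in the result were not tested.

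**Figure D4:**
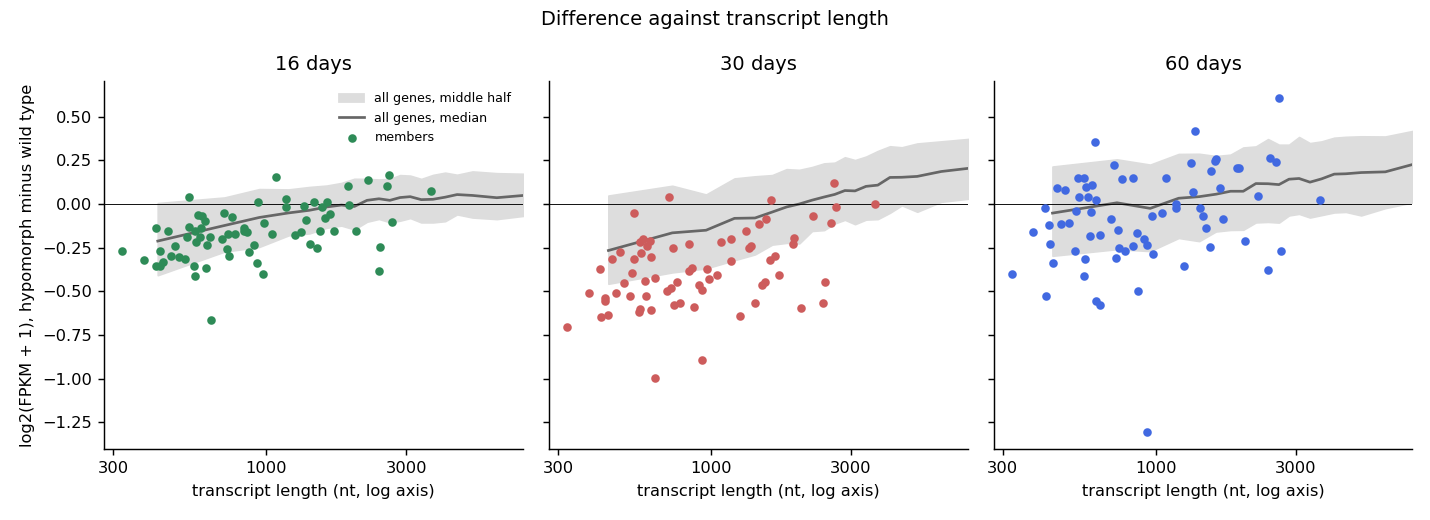
Each point is 1 of the 71 genes, with transcript length in nt on a log axis and the difference in log2(FPKM + 1), hypomorph minus wild type, on the vertical axis. The line and band are the median and the 25th to 75th percentile of all compared genes along length; 46 of the 71 members lie below the line at 16 days, 65 at 30 days and 44 at 60 days.

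Set beside genes of similar level and length, the members' median was lower at each age, with the widest gap at 30 days. Those genes were the protein-coding non-members between the 25th and 75th percentiles of the members' levels and lengths, from 574.2 to 1431 nt. Their median was -0.07 at 16 days, -0.13 at 30 days and 0.00 at 60 days. These genes leave out the shortest and most abundant ranges, where many members lie. Measured from their own bins of level and length, they had medians of 0.08, 0.12 and 0.07, so the gap to them is wider than a closer match gives. When each member was instead measured from the median of the non-members in its own bin of level and length, the members' median was -0.02 at 16 days, -0.16 at 30 days and 0.00 at 60 days. Of the 71 genes 38, 60 and 35 were then lower. At 30 days 3 of the 71 members were 1.5-fold lower on that measure, against 6.83% of the 13389 genes so measured. They were Ndufv3 at -0.71, Ndufa4l2 at -0.70 and Ndufb2 at -0.60. Ndufb2, named after its values were seen, has a plain fold of 1.49 and was not among the 11. By complex, the median so measured at 30 days was -0.22 for complex I, -0.18 for complex III, -0.11 for the assembly factors and -0.07 for complex V. At 16 days complex V lay at 0.02, and at 60 days complexes III and V lay at 0.04 and 0.05, on the other side of 0 from their uncentred medians. The bin of the shortest and most abundant transcripts held 38 members and 70 cytosolic ribosomal protein genes among 488 genes at 30 days, and without the ribosomal genes the members' median was -0.06, -0.19 and -0.03.

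The cytosolic ribosomal protein genes, also short and abundant, had medians of -0.40 at 16 days, -0.41 at 30 days and -0.24 at 60 days. They were thus at least as low as the respiratory genes at each age. Of 82 compared at 16 days all were lower, of 81 at 30 days 80 were, and of 81 at 60 days 77 were.

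The rest of the respiratory chain and its supply showed how far the 30-day difference extended. The 16 compared nuclear genes of complex IV, which passes electrons to oxygen, had medians of -0.23, -0.39 and 0.00 at 16, 30 and 60 days, close to those of complexes I and III. The 4 genes of complex II, which feeds electrons from succinate, had medians of -0.01, -0.20 and 0.29, all 4 being lower at 30 days and higher at 60 days. All 13 enzymes of the tricarboxylic acid cycle were lower at 30 days, with a median of -0.29, and the median was 0.02 at 16 days and 0.24 at 60 days. Of 15 genes of fatty acid oxidation 14 were lower at 30 days, with a median of -0.47, against -0.05 at 16 days and 0.22 at 60 days. The mitochondrial ribosome, with 77 genes, had medians of -0.05, -0.22 and 0.01. The 14 glycolytic genes had medians of 0.14, -0.09 and -0.01, and the regulators of mitochondrial biogenesis 0.07, -0.03 and 0.25. The 8 genes of cytochromes c and c1 and complex III assembly had medians of -0.03, -0.23 and 0.18. Of these, the cytochrome c1 gene Cyc1, a complex III subunit outside the symbol rule, was at 138.7 and 168.1 FPKM at 16 days, 114.6 and 163.5 at 30 days, and 126.5 and 136.8 at 60 days.

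Subunits encoded in mitochondrial DNA took another course over the ages than their nuclear partners. At 60 days all 13 were lower in the hypomorph by at least 1.5-fold, against 7.59% of all compared genes, or 10.1% after scaling. Their median was -1.07, or -1.19 after scaling, when the nuclear members stood at -0.07, or -0.18 after scaling. The values of the 13 summed to 39120 FPKM in hypomorphic and 81040 in wild-type aorta at that age. The gene mt-Nd1, for a complex I subunit of the membrane arm, was at 2885 and 6048 FPKM, mt-Cytb of complex III at 4088 and 8502, and mt-Atp6 of complex V at 3098 and 6636. At 30 days 9 of the 13 could be compared, with a median of -0.56, and at 16 days 12 could, with a median of -0.12. The rest were listed at 0 in a group, such as mt-Co1 in both genotypes at 16 and 30 days and mt-Atp6 in wild type at 30 days, where 0 may be a failed estimate.

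Markers of other cell types also differed between the genotypes. Of 7 compared brown adipocyte markers 6 were lower in the hypomorph at 30 days, with a median of -1.20, against -0.16 at 16 days and 0.29 at 60 days. The 9 listed markers summed to 319.8 FPKM in hypomorphic and 416.2 in wild-type aorta at 16 days, 181.0 and 401.0 at 30 days, and 288.1 and 243.6 at 60 days. Ucp1, the uncoupling protein of brown fat, was at 47.4 and 70.6 FPKM, 18.1 and 67.1, and 33.0 and 34.6 at the 3 ages, whereas Zic1 was at or below 0.153 FPKM in every group. Cox8b and Cox7a1 are in both this list and that of complex IV. General adipocyte markers, 9 compared at 16 and 30 days and 10 at 60 days, had medians of -0.02, -1.04 and 0.46, and the 10 listed summed to 773.4 and 1550 FPKM at 30 days. Both lists were thus lowest at the age at which the respiratory genes were lowest. The same held for smooth muscle markers, complexes II and IV, the tricarboxylic acid cycle, fatty acid oxidation, glycolysis, biogenesis regulators and both ribosome lists.

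Cardiomyocyte markers, from a cell type rich in mitochondria, were higher in the hypomorph at 30 days for 11 of 11, with a median of 1.06 and sums of 915.1 and 402.7 FPKM. Their medians were 0.16 at 16 days and 0.42 at 60 days. All 12 macrophage markers were higher at each age, with medians of 0.95, 1.69 and 2.59 and sums at 60 days of 2000 FPKM in hypomorphic and 333.5 in wild-type aorta. Smooth muscle markers had medians of 0.06, -0.36 and -0.18, and endothelial markers -0.15, -0.33 and -0.97. Acta2, listed at 0 in both genotypes at 30 days, was not compared at that age. Of the 9 smooth muscle markers compared then 6 were lower and 3 higher. Of the 9 endothelial markers 7 were lower and 2 higher at 60 days. The 11 listed skeletal muscle markers summed to between 13.5 and 53.6 FPKM in a group. The part of these cell types in the differences of the respiratory genes was not tested.

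**Figure D5:**
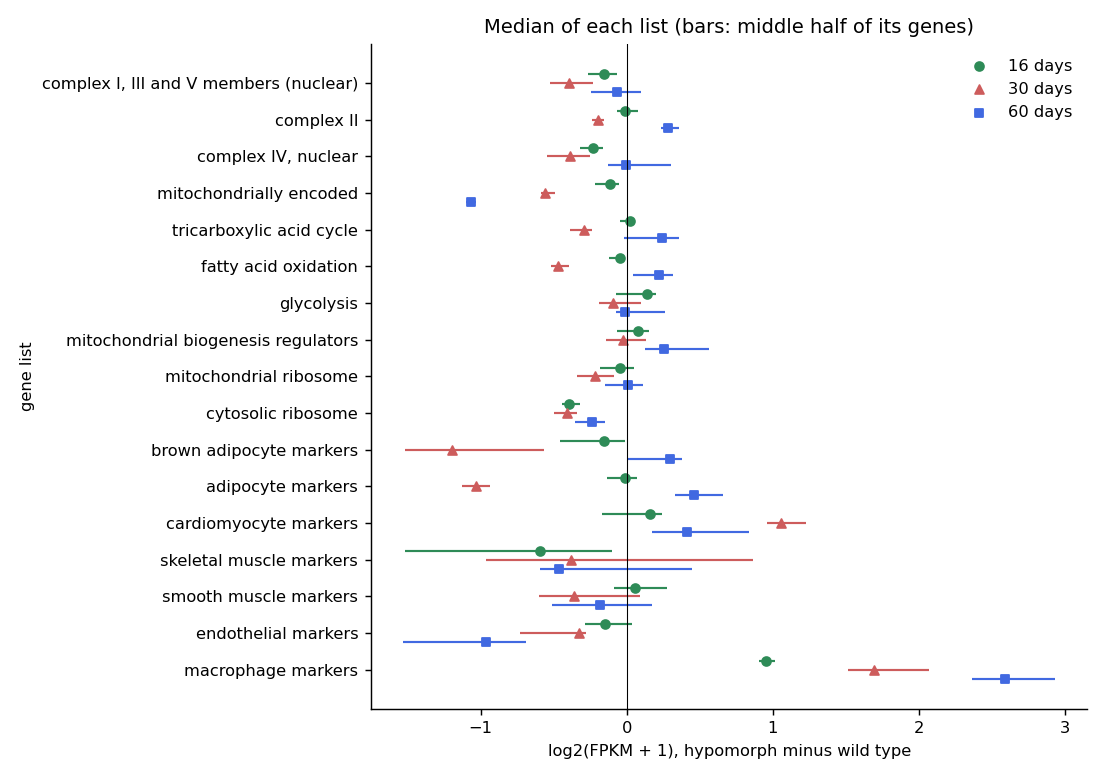
Symbols are the median difference in log2(FPKM + 1), hypomorph minus wild type, of each gene list at 16 (green), 30 (red) and 60 days (blue), and lines span the 25th to 75th percentile of its genes. Most lists lie lowest at 30 days, among them the respiratory members, fatty acid oxidation and the 2 adipocyte lists. The mitochondrially encoded genes and the endothelial markers lie lowest at 60 days, at -1.07 and -0.97.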

How the data were processed

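RNA of whole aorta was sequenced from both ends after poly-A selection in 19 libraries, per the labels' protocols. The submitters' processing notes name Cufflinks 1.3.0, TopHat2 2.0.8, SAMtools 0.1.7 and Bowtie2 2.1.0 with the build mm9, with settings not given in the sources used here. The authors deposited 1 pooled FPKM value per gene and group. The unit is read from the layout, since the headers name only values. The table of 16 days also holds, per the file headers, the authors' test statistic (a score), p-value and q-value with a status. Its log2 ratio was deposited as wild type over hypomorph and is given here with the sign reversed, and the SE is the one implied by ratio and statistic.

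Wild-type values at 30 and 60 days were listed 3 times. The listings differed for 17 and 11 genes, always by a 0 and in no member, and the largest was kept. Rows of 2 more groups had names that fit no label, and they were left out. Of 37668 genes 32638 matched a symbol. Genes listed at 0 in a group were not compared, since 0 can be a failed estimate. Differences are log2(FPKM + 1), which understates changes of low genes, for a mean of at least 1 FPKM, within each age's own table. The members and lists were chosen with earlier results of these data known. Named genes are those 1.5-fold apart at any age, the 3 highest and lowest differences of each age, the 2 most abundant of each complex, the paralogues and the catalytic core, of which 1 gene is not reported here. Genes are not replicates, so no new p-value was made. The plan to use limma applied to values per library, which the pooled tables do not give.

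Lengths and GC content are medians over GENCODE M21 basic transcripts. Bins were 10 of level by 5 of length. The listed spans of 21 members hold another gene, and the counting of overlapping genes is not given in the sources used here. Python 3.11.15, numpy 2.4.6, pandas 2.3.3, scipy 1.17.1 and matplotlib 3.10.9 were used, and the calculations were tested on simulated data.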

Additional observations from a re-analysis of the deposited data

How the results depend on the processing

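A pseudocount of 0.1, no filter on level, a mean of at least 5 FPKM, taking 0 as a true value, leaving out everything but subunits, and adding Usmg5 and Ndufb4c moved no median by more than 0.1. Counts of members 1.5-fold apart also kept within 1.5 times of their value, except that with subunits only none was 1.5-fold lower at 60 days. Scaling by the median ratio of all genes changed the 60-day values to a median of -0.18, with 5 genes lower and 0 higher by 1.5-fold. It gave 16 genes lower by 1.5-fold at 30 days, against 11. Over all genes so scaled the share lower by 1.5-fold was 10.1% at 60 days and 8.05% at 30 days. The share higher by 1.5-fold at 60 days was 11.7%.

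Measuring from bin medians of level and length changed the values at 16 and 30 days most, and scaling those at 60 days. Centring was done with all genes in the medians, and, as choices made after the data were seen, with the members left out, with members and ribosomal genes left out, and with GC content added. In that order the median was -0.019, -0.019, -0.057 and -0.036 at 16 days, and -0.145, -0.159, -0.187 and -0.205 at 30 days. The count of members 1.5-fold lower was 0 at 16 days and 3 at 30 days in all 4, and the count 1.5-fold higher at 60 days was 0 in all 4. The shares of all genes 1.5-fold lower ran from 4.91% to 4.97% at 16 days and from 6.44% to 6.86% at 30 days. The share 1.5-fold higher at 60 days ran from 11.3% to 11.4%. The part of level, length and GC content in the differences was not tested.

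The count of 0 members called at 16 days was also 0 at a q-value below 0.1 in the authors' deposited table and when its p-values were adjusted again over genes of at least 5 FPKM. Leaving out single replicates was not run, since each group has 1 pooled value. No paired analysis was possible because the tables hold no value per library. Depth is unknown, so no limit of detection can be given.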

Other observations

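A further 2 genes fell outside the symbol rule although the RefSeq table names them as an ATP synthase subunit and a protein-coding complex I gene. Usmg5 (Atp5md in RefSeq) was at 149.3 FPKM against 166.4 in wild type at 16 days, 146.7 and 162.3 at 30 days, and 140.0 and 136.0 at 60 days. Ndufb4c, a pseudogene in GENCODE, was at 17.70 and 22.00 FPKM, 17.9 and 20.7, and 19.9 and 17.3 at the same ages. Its reads may be shared with Ndufb4, so both values are uncertain.

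Among the 14 regulators of mitochondrial biogenesis, Tfam, which packages and transcribes mitochondrial DNA, was at 19.4 FPKM against 17.8 in wild type at 16 days, 18.9 and 20.2 at 30 days, and 19.1 and 15.4 at 60 days. Ppargc1a, a coactivator of respiratory genes, was at 3.34 and 2.86 FPKM, 1.46 and 1.15, and 0.739 and 0.878. Neither was lower in the hypomorph by 1.5-fold at any age, and Ppargc1a at 60 days was below the filter of 1 FPKM. Of the 12 regulators compared at 60 days, 4 were higher by 1.5-fold, against 15.6% of all compared genes. Lower by 1.5-fold were 0, against 7.59%. Cs, the citrate synthase gene, was at 85.0 and 83.3 FPKM, 68.6 and 73.5, and 70.99 and 55.24 at the 3 ages.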
